A study of Homo sapiens with 6 samples.

Results

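Tumor cells carry surface proteins that T cells and natural killer (NK) cells read through paired receptors, and transcripts of 10 such proteins were followed here in sorted pancreatic cancer cells. The members were named by gene symbol: the checkpoint ligands CD274 (PD-L1), CD276 (B7-H3) and CD47, the adenosine-producing enzyme NT5E (CD73), the nectin family ligands PVR and NECTIN2, the stress ligands ULBP2 and MICA, and the adhesion ligands CD58 and ICAM1. Of the 10, 9 were matched to a row among the 19469 genes of the count table, and ICAM1, which had no row, was not analysed here. CD58 was picked because 1 library was known to hold a high count of it, so its levels are given as a description without a test, and the other 8 members were compared between groups.

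The cells were L3.6pl, an established human pancreatic cancer line from an adenosquamous carcinoma, unmodified and untreated, kept in DMEM with serum. They were separated by FACS on surface L1CAM into L1high (labelled L1CAM_POSITIVE) and L1low (L1CAM_NEGATIVE) cells, with dead cells left out of the sort, and RNA of each was sequenced in 3 libraries. All libraries thus come from a single line, which the labels also spell L6.6pl, and the methods say that sorting experiments were done independently more than once without tying this to the RNA libraries, so p-values may measure only the spread between these libraries. Each library held between 16334610 and 21064685 counted reads. Levels are in CPM, a gene's reads per 1000000 reads of its library after scaling with edgeR's TMM factors over the 6 libraries. Differences were fitted first over 5 libraries, since the study's own table leaves out L1high replicate 3, and then over all 6. Log2 fold changes are L1low over L1high. A gene was called where its Benjamini-Hochberg adjusted p over all genes, from the quasi-likelihood test of edgeR, was under 0.05. L1CAM itself, the sorting marker, stood at 84.0, 69.8 and 89.5 CPM in the L1high libraries and at 17.7, 23.7 and 20.0 in the L1low libraries. All 6 epithelial markers sought (EPCAM, CDH1 and 4 keratins) had a row, and of 21 leukocyte markers only CD68 did, at 8.42 to 8.81 CPM in L1high and 9.37 to 11.3 in L1low cells. The common leukocyte antigen PTPRC and the T cell receptor chain CD3E had no row.

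These ligands act in opposite senses. PD-L1 binds PD-1 on T cells and CD47 binds SIRP-alpha on macrophages, and both restrain the cell that meets them. CD73 makes adenosine from AMP, which dampens T and NK cells. PVR and NECTIN2 are shared between the activating receptor CD226 and the inhibitory receptor TIGIT, ULBP2 and MICA engage the activating receptor NKG2D, and CD58 engages CD2 to strengthen contact with T and NK cells.

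Of the 8 members compared, NT5E and NECTIN2 rose in L1low cells and none was called lower, both over 5 libraries and over all 6. NT5E was about 1.5-fold higher and NECTIN2 1.27-fold higher over the 5 libraries. Over the same libraries 4.41% of all genes were called higher and 3.15% lower (4.58% and 3.37% over all 6). The median log2 fold change of the 8 members was 0.06 over 5 libraries and -0.02 over 6, beside 0.0016 and -0.0087 for all genes. CD58 stood apart from the other members, in that a single L1high library lay far above the other 5.

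The starts of NT5E, NECTIN2 and CD58 are shown because the results turn on these members. Each sequence is the 250 bases upstream of the gene's start in RefSeq, build GRCh38.p14, printed 5′ to 3′ on the gene's own strand. Capitals mark matches, on either strand, to the motifs searched: the GC box GGGCGG, the TEAD core GGAATG, the AP-1 site TGANTCA, the hypoxia response core ACGTG and the interferon-stimulated response element, which is GAAA followed after any 2 bases by GAAA, matches of 1 motif being allowed to overlap. NT5E lies on the plus strand at chr6:85449833-85450082, NECTIN2 on the plus strand at chr19:44846047-44846296 and CD58 on the minus strand at chr1:116571027-116571276. GENCODE starts NT5E further upstream than this window, and starts NECTIN2 and CD58 inside theirs.
NT5E: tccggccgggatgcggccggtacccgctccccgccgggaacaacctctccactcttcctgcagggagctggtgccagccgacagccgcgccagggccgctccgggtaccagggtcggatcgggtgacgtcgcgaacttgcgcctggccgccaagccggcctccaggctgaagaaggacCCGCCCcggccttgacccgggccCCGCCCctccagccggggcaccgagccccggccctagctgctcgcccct
NECTIN2: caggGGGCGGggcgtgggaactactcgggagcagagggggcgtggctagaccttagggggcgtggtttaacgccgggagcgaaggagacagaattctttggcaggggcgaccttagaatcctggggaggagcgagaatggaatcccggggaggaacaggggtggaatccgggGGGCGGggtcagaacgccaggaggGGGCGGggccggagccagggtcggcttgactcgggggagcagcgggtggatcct
CD58: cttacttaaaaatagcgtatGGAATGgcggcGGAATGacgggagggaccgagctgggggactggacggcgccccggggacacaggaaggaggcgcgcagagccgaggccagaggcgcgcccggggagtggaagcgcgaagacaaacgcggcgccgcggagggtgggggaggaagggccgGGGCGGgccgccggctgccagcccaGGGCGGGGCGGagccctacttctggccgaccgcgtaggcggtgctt
The NT5E window held 2 GC boxes, the NECTIN2 window 3, and the CD58 window 3 GC boxes and 2 TEAD cores. Over all 35116 RefSeq windows of this length, 42.6% held a GC box and 11.9% a TEAD core. GC boxes were found for 9 of the 10 members and TEAD cores for 2, CD58 and PVR. The AP-1 site, present in 6.57% of all windows, was found for none of the 10. The hypoxia core (18.5% of all windows) was found for CD47 and in the second of the CD276 windows, and the interferon element (3.02%) for CD274 alone, with 2 matches. These matches describe letters in these windows and nothing about a factor.

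NT5E encodes CD73, the surface enzyme that makes adenosine outside the cell. The gene (ENSG00000135318) spans chromosome 6 from 85449584 to 85495791 on GRCh38. It stood at 40.2, 46.8 and 36.4 CPM in L1high replicates 1, 2 and 3. In L1low replicates 1, 2 and 3 it stood at 64.2, 66.9 and 63.7. Every L1low library was above every L1high library, and the L1low libraries lay close together. The mean was 41.1 ± 5.24 CPM over the L1high libraries (SD, n = 3), and over the L1low libraries it was 64.9 ± 1.72 (SD, n = 3). The log2 fold change was 0.59 over 5 libraries, with a standard error of 0.09 and an adjusted p of 0.0021 in edgeR, and 0.66 (adjusted p = 0.0013) over all 6. It stayed called in each fit that left out a library, with the adjusted p from edgeR at most 0.016. In bulk RNA a change in the share of cells that make a transcript and a change in its amount per cell cannot be told apart.

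The other genes of the adenosine route were not called. ENTPD1 (CD39), which makes the AMP that CD73 uses, stood at 2.40, 2.77 and 2.07 CPM in L1high and 1.87, 1.56 and 1.75 in L1low cells, lower in every L1low library with an adjusted p of 0.19 from edgeR over 5 libraries. ADORA2B, an adenosine receptor, stood at 21.4, 20.8 and 19.9 against 23.7, 25.5 and 23.2 CPM (adjusted p = 0.28 from edgeR). In both genes the groups did not overlap, which held for 28.8% of all genes in the table. Of 9 adenosine genes with a row among 10 listed, 0 were called in either fit. Without overlap 1 was higher and 3 were lower, and the median log2 fold change of the 9 was 0.08 over 5 libraries. Among the 3 lower genes, ENTPD3 stood at 1.51, 1.36 and 1.52 CPM in L1high and 0.771, 0.947 and 1.24 in L1low cells. A row needed more than 1 CPM in at least 2 libraries, so ENTPD3 has its row only through the group where it is high.

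NECTIN2 (CD112, ENSG00000130202), a cell adhesion molecule that binds CD226, TIGIT and PVRIG, is on chromosome 19 from 44846175 to 44889223. Its level was 108, 104 and 119 CPM in the L1high libraries and 124, 140 and 139 in the L1low libraries. The groups did not overlap, but L1high replicate 3 and L1low replicate 1 lay close. The log2 fold change of 0.35 (standard error 0.08) had an adjusted p of 0.025 from edgeR over 5 libraries, and over all 6 libraries it was 0.28 with an adjusted p of 0.048. The call held without L1high replicate 3 or L1low replicate 1 (adjusted p from edgeR 0.025 and 0.035). It was lost when any 1 of the other 4 libraries was left out, that is L1high replicate 1 (adjusted p = 0.19), L1high replicate 2 (0.11), L1low replicate 2 (0.22) and L1low replicate 3 (0.10), all from edgeR. A long noncoding RNA gene, ENSG00000267282, overlaps NECTIN2 on the opposite strand, with a mean of 80.7 counts.

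PVR (CD155, ENSG00000073008), the related ligand of TIGIT and CD226 on the same chromosome from 44643798 to 44666162, lay the other way. It stood at 104, 98.8 and 105 CPM in L1high and at 78.6, 89.3 and 93.2 in L1low cells. All L1low libraries were below all L1high libraries, yet the difference was not called (log2 fold change -0.21, 95% interval from -0.40 to -0.02 before adjustment, adjusted p = 0.17 from edgeR over 5 libraries, and 0.091 over all 6). Of these 2 TIGIT ligands among the members, then, the transcript of NECTIN2 was called higher in L1low cells and that of PVR was not called. CEACAM19 and ENSG00000279095 overlap PVR on the same strand, with means of 345 and 199 counts, and reads where the genes overlap cannot be told apart. Among the other nectins, NECTIN4, an epithelial nectin, fell from 12.5, 12.3 and 13.5 CPM to 7.10, 6.13 and 7.17 (log2 fold change -0.86, standard error 0.14, adjusted p = 0.0024 from edgeR over 5 libraries, 7.7e-04 over 6). NECTIN1, at 117 to 127 CPM in L1high and 131 to 136 in L1low cells, was not called (adjusted p = 0.32 from edgeR), nor was NECTIN3.

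ULBP2 (ENSG00000131015, chromosome 6 from 149942014 to 149949235) is a lipid-anchored ligand of NKG2D. Its counts came to 288, 251 and 185 in the L1high libraries and 179, 186 and 189 in the L1low libraries, or 13.6, 12.2 and 11.3 against 9.85, 10.4 and 10.7 CPM. The L1low libraries were again all below the L1high libraries, by a narrow gap, and the log2 fold change of -0.32 was not called (95% interval from -0.60 to -0.04 before adjustment, adjusted p = 0.16 from edgeR over 5 libraries, 0.19 over 6). MICA (ENSG00000204520, chromosome 6 from 31399784 to 31415315), the other NKG2D ligand among the members, was near the floor of the table, with 28, 25 and 32 counts in L1high and 19, 24 and 34 in L1low cells. Its log2 fold change was 0.18 over 5 libraries and -0.04 over all 6, and with an interval from -0.55 to 0.91 over 5 libraries a difference of less than about that size was not detectable at this depth. The wider set of NKG2D ligands gave no call. ULBP1, ULBP3, RAET1E, RAET1G and RAET1L had a row (5 of 6 listed), 0 were called in either fit, and the lowest adjusted p from edgeR was that of RAET1E (0.091 over 5 libraries), at 15.9, 15.3 and 14.4 CPM in L1high and 11, 11.3 and 13.3 in L1low cells. The ULBP and RAET1 genes are close relatives of one another, and reads shared between them could have been assigned to either.

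CD274, whose product PD-L1 is the ligand of PD-1, was expressed at a very low level in both groups. It had 30, 28 and 12 counts in the L1high libraries and 38, 25 and 28 in the L1low libraries, that is 0.731 to 1.41 CPM and 1.39 to 2.09 CPM. The ranges overlapped, and the log2 fold change of 0.29 (95% interval from -0.36 to 0.95) over 5 libraries was not called (adjusted p = 0.61 from edgeR), and the 6-library value of 0.50 was not called either (adjusted p = 0.35). CMTM6, which keeps PD-L1 on the surface, stood at 42.1, 46.9 and 34.1 CPM in L1high and 55, 49.6 and 32.6 in L1low cells and was not called. It was lowest in replicate 3 of each group. IRF1, a transcription factor of the interferon response, stood at 19.8 to 20.9 CPM in L1high and 22.8 to 26.6 in L1low cells, also without a call (adjusted p = 0.12 from edgeR over 5 libraries).

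CD276 and CD47 were abundant and close to equal in the groups. CD276 (ENSG00000103855, chromosome 15 from 73683966 to 73714514), a B7 family member common on carcinomas, stood at 101, 100.2 and 108 CPM in L1high and 96.8, 91.5 and 96.5 in L1low cells. The L1low libraries were all lower, and the log2 fold change was -0.08 over 5 libraries, with an interval from -0.24 to 0.09 (adjusted p = 0.59 from edgeR). CD47 (ENSG00000196776, chromosome 3 from 108043091 to 108091862) stood at 82.9, 94.6 and 74.6 CPM in L1high and 92.4, 89.1 and 72.7 in L1low cells. It was lowest in replicate 3 of each group, and the groups covered the same range. Its log2 fold change was -0.06 over 5 libraries and 0.01 over all 6, and the interval over 5 libraries ran from -0.29 to 0.18. QPCTL, which modifies CD47 so that SIRP-alpha can bind it, stood at 17.3 to 19.1 CPM in L1high and 17.0 to 20.3 in L1low cells.

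**Figure D1:**
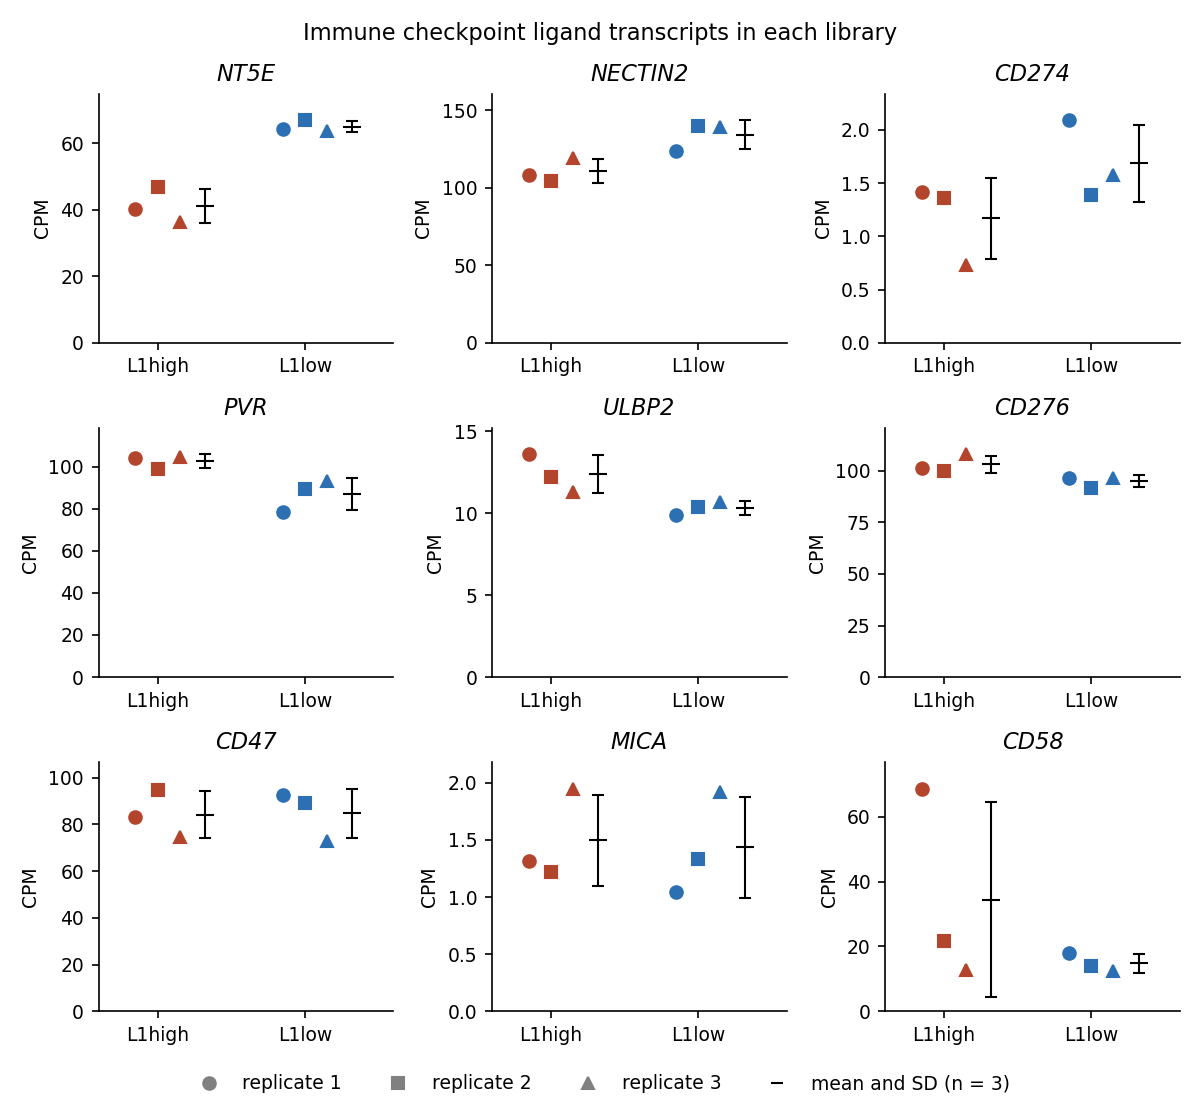
Level of each of the 9 members in each library, in CPM on an axis that starts at 0 in each panel, with L1high in red and L1low in blue. Symbols mark the replicate number, and the black line and bar give the mean and SD of the 3 libraries. NT5E and NECTIN2 were higher in every L1low library, PVR, ULBP2 and CD276 lower in every one, and in CD58 L1high replicate 1 (68.6 CPM) lay far above the other 5.

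Without regard to calls, the ranges of the groups were apart in 5 of the 8 members, higher in NT5E and NECTIN2 and lower in PVR, ULBP2 and CD276. Over all genes 28.8% did not overlap, 15.2% with L1low higher and 13.7% with L1low lower. The members in which they overlapped were the scarce CD274 and MICA, and CD47.

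**Figure D2:**
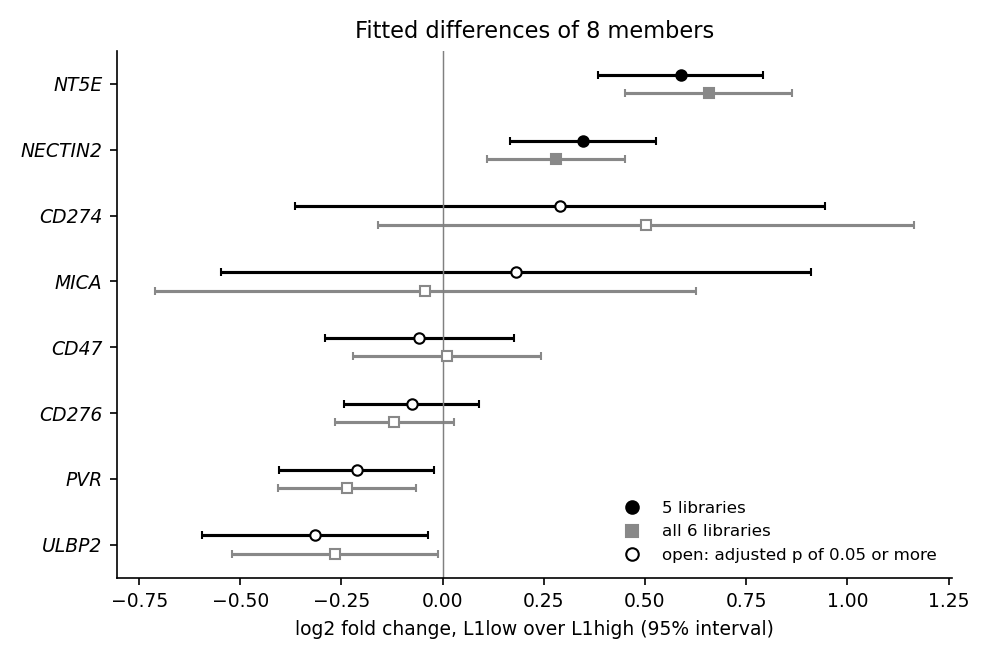
Fitted log2 fold change of 8 members, L1low over L1high, with its 95% interval before adjustment, over 5 libraries (black circles) and all 6 (grey squares). Filled symbols are adjusted p under 0.05, which NT5E and NECTIN2 reached in both fits, while the intervals of CD274 and MICA were the widest.

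Per kilobase of annotated exon, a scale that lets genes be compared, NECTIN2 had the highest level of the members in L1low cells, at 35.9 ± 2.49 CPM per kilobase (SD, n = 3). CD276 followed at 17.3 ± 0.537, then NT5E at 14.3 ± 0.380 and CD47 at 10.3 ± 1.28. The library ranges of these were separate from the next in order, except that CD47 was followed by PVR (8.35 ± 0.726), CD58 (8.28 ± 1.64) and ULBP2 (7.71 ± 0.310), whose ranges overlapped from each to the next. CD274 (0.411 ± 0.0880) and MICA (0.372 ± 0.116) were lowest and overlapped. In L1high cells NT5E ranked 7 in place of 3, at 9.07 ± 1.16, and CD58 ranked 2 through its 1 high library. Ranks 4 to 6 there were CD47 (10.2 ± 1.22), PVR (9.83 ± 0.310) and ULBP2 (9.25 ± 0.868). All of these lay within the SD of NT5E, so the order from rank 4 to 7 is not resolved. Exon lengths were the union over all GENCODE transcripts, which for PVR is 10427 bases, so the level per kilobase of a gene with long minor transcripts is understated.

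CD58 (LFA-3, ENSG00000116815) lies on the minus strand of chromosome 1 from 116514534 to 116571039. L1high replicate 1 held 1456 reads of it, L1high replicate 2 held 447 and L1high replicate 3 held 209, while the L1low libraries held 327, 251 and 218. On the CPM scale this is 68.6, 21.8 and 12.7 in L1high and 18, 14 and 12.3 in L1low cells. L1high replicate 1 alone was high. L1high replicate 2 lay above the L1low libraries and L1high replicate 3 within their range, so that the groups overlapped. The 5 other libraries had a mean of 15.8 ± 4.04 CPM (SD, n = 5), and L1high replicate 1 stood 4.36-fold above that mean and 3.15-fold above the next library, L1high replicate 2. The fitted log2 fold change was -1.61 over 5 libraries and -1.23 over all 6, and -0.23 without L1high replicate 1.

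The size of this excess was rare in the table, but CD58 was picked for it, so its rank is a description and not a test. Among the 17023 genes whose average log2 CPM was 1 or more, 7 (0.0411%) had a library at least 2-fold above the next, and the median ratio over all these genes was 1.05. Ranked by the ratio, CD58 was number 2, after the kinase gene PAK3 on chromosome X, which stood at 50.4 CPM in L1high replicate 2 and 3.41 to 4.90 in the others. PAK3 and CD58 were the 2 protein-coding genes of the 7. The other 5 were the 7SL RNA genes RN7SL1 and RN7SL2, ENSG00000283029 with the same counts as RN7SL1, and the pseudogenes RPL38P6 and EEF1A1P9, whose near-identical copies could share reads. The library at its peak was L1low replicate 1 for the 7SL genes and ENSG00000283029, L1high replicate 3 for RPL38P6 and L1low replicate 3 for EEF1A1P9. In L1high replicate 1 CD58 was the sole gene past 2-fold, and the genes next to it were GIRGL (1.61-fold), OR51B5 (1.57-fold), HABP4 (1.46-fold) and MIR6501 (1.46-fold). ULBP2 was the other member with its highest level in this library, at 13.6 CPM beside 12.2 in the next.

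**Figure D3:**
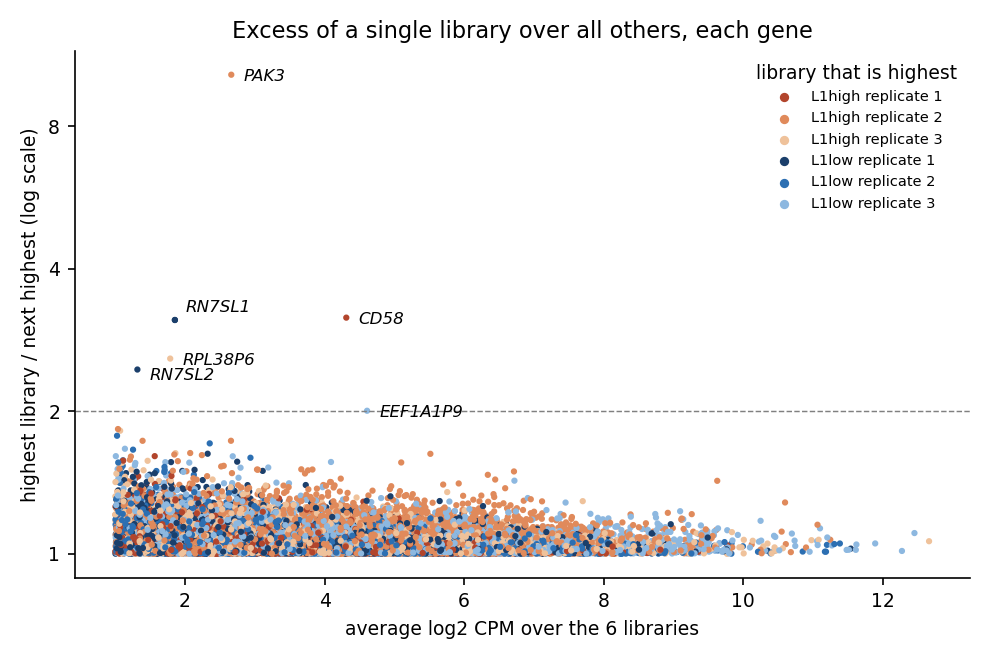
Ratio of the highest library to the next highest (log axis) against the average log2 CPM, 1 point per gene for 17023 genes, coloured by the library that is highest. The dashed line marks 2-fold. CD58 (ratio 3.15, highest in L1high replicate 1) and PAK3 lie apart from genes of their level, and the labelled RN7SL1 point also covers ENSG00000283029.

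The genes around CD58 did not share its peak. Within 1 Mb of it GENCODE annotates 50 other genes, and the 11 compared here had a ratio of L1high replicate 1 to the mean of the other libraries between 0.577 and 1.38. Of those compared, the nearest that does not overlap CD58 was IGSF3, 3360 bases away. IGSF3 stood at 31.5 CPM in L1high replicate 1, within its range of 30.1 to 39.8 in the others. NAP1L4P1, a processed pseudogene that lies inside CD58 on the same strand, stood at 12.9 CPM in L1high replicate 1 and 10.3 to 13.7 in the others. The highest ratio, 1.38, was that of the scarce CD101-AS1, at 1.32 CPM in L1high replicate 1, below its 1.51 CPM in L1high replicate 2. The gene for the receptor of CD58, CD2, had no row.

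**Figure D4:**
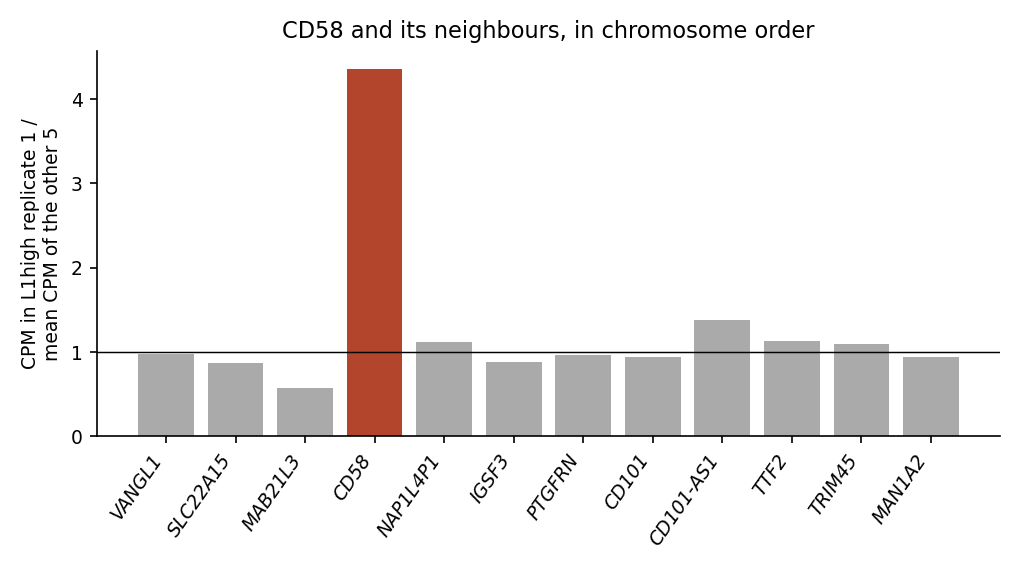
Level in L1high replicate 1 divided by the mean of the other 5 libraries, for CD58 (red) and the 11 neighbours compared (grey), in chromosome order on an axis that starts at 0. CD58 reached 4.36, and its neighbours stayed between 0.577 and 1.38.

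By Pearson's r of log2 CPM over the 6 libraries, among 1000 genes that vary by at least 1 on that scale, those most like CD58 were ENSG00000238142 (r = 0.92), NUP153-AS1 (0.83), ATP23 (0.80), BBS5 (0.80) and CD36 (0.79). ENSG00000238142, on chromosome 1 from 16887577 to 16889725, stood at 3.82 CPM in L1high replicate 1 and 1.81 to 2.64 in the others. These r rest on 6 points that share their library totals and on the 1 high library, and are given as a description.

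Beyond the members, 86 genes of related roles were listed (B7 and butyrophilin family, NKG2D ligands, nectins, leukocyte adhesion ligands, adenosine genes, other inhibitory ligands, TNF family ligands with death receptors, and genes that handle or shed the members), and 59 had a row. Over 5 libraries 1 was called higher and 5 lower in L1low cells, which is 10.2% of the list beside 7.57% of all genes. Over all 6 libraries 3 were higher and 5 lower (13.6% beside 7.95%). The 3 include CD86, which has its row only through the group where it is high, as described below. The median log2 fold change of the list was 0.05 over 5 libraries and 0.02 over 6. The gene called higher was VSIR, which encodes VISTA, an inhibitory B7-like protein. It stood at 15.3, 13.3 and 14.3 CPM in L1high and 24.1, 25.8 and 20.4 in L1low cells (log2 fold change 0.72, standard error 0.13, adjusted p = 0.0055 from edgeR over 5 libraries).

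The genes called lower, apart from NECTIN4, were CD70, CD59, LGALS3 and FAS. CD70, the ligand of the T cell receptor CD27, stood at 55.7, 58.8 and 65.2 CPM in L1high and 34.5, 38.5 and 39.0 in L1low cells. Its log2 fold change was -0.61, with a standard error of 0.09 and an adjusted p of 0.0015 from edgeR over 5 libraries. CD59, which protects cells from complement, fell from 323, 342 and 323 CPM to 246, 247 and 238 (log2 fold change -0.44, adjusted p = 0.0023 from edgeR). LGALS3, a galectin that binds T cell glycoproteins, stood at 25.8, 31.6 and 27.5 against 20.1, 15.5 and 20.3 CPM (log2 fold change -0.61, adjusted p = 0.018 from edgeR). FAS, the death receptor that T cells engage through FAS ligand, stood at 48.0, 53.6 and 43.0 against 39.5, 37.0 and 35.0 CPM (-0.44, adjusted p = 0.016 from edgeR). In none of these did the groups overlap, but they were named because they were called. Over all genes 13.7% did not overlap with L1low lower.

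Over all 6 libraries CD86 and CD24 were called as well. CD86, a costimulatory B7 protein, had 14, 14 and 12 counts in L1high and 39, 41 and 16 in L1low cells (log2 fold change 1.36, adjusted p = 0.045 from edgeR over 6 libraries, and 0.067 over 5). L1low replicate 3 lay near the L1high libraries. Only L1low replicates 1 and 2 were above 1 CPM for CD86 (2.15 and 2.28, beside 0.660 to 0.731 in L1high cells). Every gene in the table is above 1 CPM in at least 2 libraries. CD86 thus has its row only through the group where it is high, which limits its call. CD24, a ligand of the inhibitory receptor Siglec-10, stood at 13.7, 17.1 and 12.2 CPM in L1high and 24.4, 19.0 and 18.7 in L1low cells (0.53, adjusted p = 0.047 from edgeR over 6 libraries, and 0.097 over 5). PDCD1LG2 (PD-L2), CD80, MICB, VCAM1, IDO1 and HLA-G were among the 27 listed genes without a row.

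**Figure D5:**
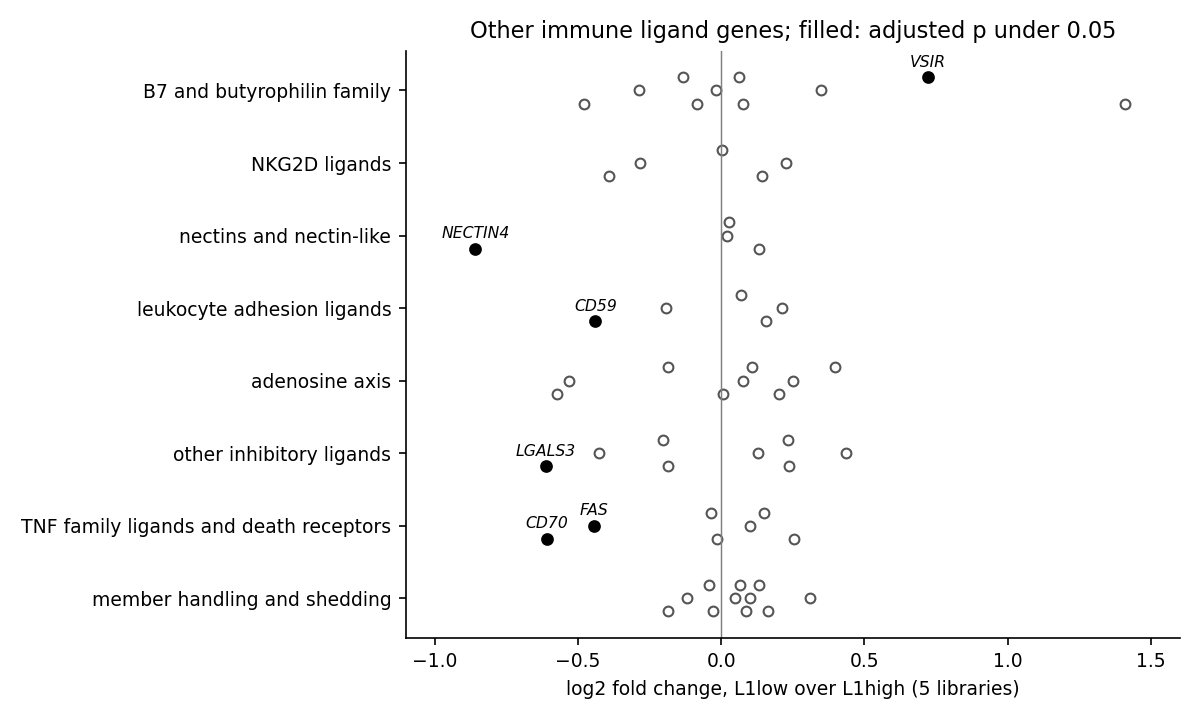
Log2 fold change over 5 libraries, L1low over L1high, of the 59 listed genes with a row, 1 point per gene and 1 line per role, spread vertically for legibility. Filled points are adjusted p under 0.05: VSIR to the right and NECTIN4, CD59, LGALS3, CD70 and FAS to the left, while no gene of the NKG2D, adenosine or handling groups was called.

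Some genes that handling can induce also differed between the sorted groups, though handling itself was not measured. Of 10 immediate early and heat shock genes listed for this, 5 were called higher in L1low cells (FOS, FOSB, EGR1, ATF3 and IER2) and 0 lower. Over the same 5 libraries 4.41% of all genes were called higher and 3.15% lower. The heat shock genes HSPA1A and HSPA1B were not called. The sum of the 10 genes ran from 8268 to 8890 CPM in L1high and from 10189 to 10923 in L1low cells. The part of these genes in the differences of NT5E, NECTIN2 and VSIR was not tested. Of the epithelial markers, KRT19 was called higher (log2 fold change 0.69, adjusted p = 6.8e-05 from edgeR over 5 libraries) and EPCAM lower (-0.37, adjusted p = 0.013 from edgeR), and the other 4 were not called.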

How the data were processed

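RNA of FACS-sorted L1high and L1low L3.6pl cells was sequenced in 3 libraries each. TruSeq stranded mRNA libraries were read from both ends. BWA placed the reads on GRCh38, and featureCounts summed them over the genes of Ensembl release 94, per the study's methods. The authors deposited these raw counts, and each of the 19469 genes was above 1 CPM in at least 2 libraries, so scarcer genes are not covered. Tool versions and the options for strand and multi-mapped reads are not given in the sources used here, and the submitters' processing notes also name DESeq2.

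Symbols, coordinates and exon lengths came from GENCODE release 44, which matched 19344 identifiers. Samples were grouped by their titles. In R 4.3.3 with edgeR 4.0.16, counts were filtered with filterByExpr, scaled by TMM and tested with the quasi-likelihood test over all genes, with Benjamini-Hochberg adjustment and calls under 0.05. Standard errors are the log2 fold change over the square root of F, and 95% intervals use the same degrees of freedom. The 5-library fit was tested on simulated counts of 19469 genes, of which 200 were changed by 1 log2 unit. It recovered 176 of these (88%), with 10 false calls among 186. Smaller changes, such as that of NECTIN2, and effects shared by a replicate number were not simulated. Log2 CPM values use a prior count of 2.

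The members and lists were chosen with earlier results of these data known. The genes named are the members, list genes called in either fit, uncalled partners of a member, neighbours of CD58 within 1 Mb, and the 5 genes most like it. Neighbours of CD58 beyond the 11 compared are not reported here. CMTM6, IRF1, QPCTL, ADORA2B, ENTPD3, NECTIN1, NECTIN3, RAET1E and the list genes named as having no row were added as partners or relatives of members. As alternatives, all 6 libraries were used, each replicate was left out, and the following were tried: the replicate number as a block, RLE, upper-quartile or total scaling, DESeq2 1.42.0, no filter, and at least 10 counts in every library.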

Additional observations from a re-analysis of the deposited data

How the results depend on the processing

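The alternatives gave 267 values for 33 results, of which 235 stayed the same, 12 changed sign, 4 lost a call and 1 gained one. The other 15 moved by more than a set margin, these being counts of called genes and the CD58 value without L1high replicate 1. NT5E kept its call under each alternative, with adjusted p from 9.7e-06 to 0.016. The number of genes called ran from 627 to 1473 when each replicate was left out of the 6, lowest without L1low replicate 2 (674 without L1high replicate 1). Members called higher then ran from 1 to 2, NECTIN2 being the member lost (log2 fold change 0.24 to 0.35), and list genes called ran from 1 to 3 higher and from 3 to 5 lower, the lowest count also without L1low replicate 2. All 6 libraries gave 3 list genes higher and 5 lower, and upper-quartile scaling and DESeq2 each gave 6 lower. Leaving out L1high replicate 3 is the 5-library comparison itself, and the filter removed no gene there, so that no filter tests nothing. The log2 fold change of CD47 changed sign with all 6 libraries (0.011) and ran from -0.058 to 0.12 when replicates were left out, and that of MICA was -0.043 with all 6 and ran from -0.30 to 0.18. Neither was called, and the cause was not tested. CD58 ran from -1.61 to -0.23, the latter without L1high replicate 1, by construction. Other scalings moved mean levels of members by at most 0.616% and gave a CD58 ratio from 3.14 to 3.19. DESeq2 gave no adjusted p for CD274 and MICA.

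Libraries with the same number shared no stated origin, and their deviations from the group means correlated at 0.12, 0.097 and 0.29 over 17023 genes for numbers 1, 2 and 3. L1high replicate 2 correlated slightly better with L1low replicate 1 (0.11) than with its own number, so the main fit did not take the numbers to pair the samples. Replicates 3 had the highest correlation (0.29), and each correlated at -0.20 to -0.15 with the other numbers of the opposite group. Deviations sum to 0 within each group, so the negative values largely follow from the positive one and are no separate sign. The 5-library fit keeps L1low replicate 3 without L1high replicate 3, so a deviation shared by these would fall on 1 group there. Whether replicates 3 share an origin was not tested. With the replicate block over 6 libraries 2363 genes were called, and 1 member was lower (PVR, -0.24, adjusted p = 0.048 from edgeR). In that fit 3 list genes were higher and 7 lower, and CD47 and MICA stood at 0.011 and -0.067. With the replicate block over 5 libraries 1799 genes were called, 3 list genes were higher and 7 lower, and CD47 and MICA stood at 0.045 and -0.084.

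Depth limits CD274 and MICA most, with 12 to 38 counts per library.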

Other observations

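Genes for receptors that bind the members were sought as well. Of 12 listed, 7 had no row, among them PDCD1, TIGIT, CD226 and CD2. The 5 with a row were SIRPA at 11.2 to 14.2 CPM in L1high and 13.4 to 15 in L1low cells, PVRIG at 3.49 to 4.33 and 3.8 to 5.08, CD96 at 1.64 to 2.78 and 2.56 to 3.78, KLRK1 (NKG2D) at 2.31 to 2.63 and 2.92 to 3.95, and ITGAM. ITGAM, the integrin alpha M chain of a receptor for ICAM1, was the 1 gene of these 5 called. It stood at 3.87, 2.92 and 3.72 CPM in L1high and 1.38, 1.39 and 0.791 in L1low cells. Its log2 fold change was -1.50 with a standard error of 0.29 (adjusted p = 0.0080 in edgeR over 5 libraries). The L1low values rest on 25, 25 and 14 counts, near the floor of the table. Over the same 5 libraries 7.57% of all genes were called, 3.15% of them lower in L1low cells as a share of all genes. ITGB2, the partner chain of that receptor, had no row.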
